A study of Mus musculus with 8 samples.

Results

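Nuak1 encodes an AMPK-related protein kinase and lies on mouse chromosome 10. Described here is a 1.1 Mb stretch around it, from 83000000 to 84100000 in the build mm9, which also holds the H3K36me2 domain with the highest wild-type value of the whole H3K36me2 table. The window was chosen by measured values, namely the wild-type H3K36me2 value of that domain and the K36M over WT ratio near Nuak1. Those values are therefore given as a description, with no test. Of the 7689 listed regions of the 3 marks, 14 overlap the window: 7 of 1691 for H3K36me2, 7 of 4999 for H3K36me3 and 0 of 999 for H3K27me3.

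All libraries came from C3H10T1/2, a line of mouse embryo mesenchymal progenitors, at passages 10 to 15. The cells carried a stable FLAG-HA-tagged histone H3.3 transgene. It was either wild type (WT) or the mutant K36M, in which methionine replaces lysine 36, so the WT group also holds tagged H3.3. Each mark was precipitated once per genotype from micrococcal nuclease-digested chromatin, with Drosophila S2 chromatin added at 5% of the mouse chromatin. That makes 6 ChIP libraries, 1 per group. The 2 input libraries of the series were not analysed here. Whether the cells were 1 clone or a pool, and how strongly the transgenes were expressed, is not given in the sources used here.

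H3K36me3 is laid down by SETD2, which travels with elongating RNA polymerase II, so it marks the bodies of transcribed genes. H3K36me2 is laid down mainly by NSD1 and NSD2, and it covers long stretches between genes as well as parts of genes. H3K27me3 is laid down by Polycomb repressive complex 2, which is known to be inhibited by methylation of lysine 36 on the same histone tail. The K36M histone is known to inhibit H3K36 methyltransferases. The NUAK1 kinase itself is activated by LKB1 and acts on myosin phosphatase, and it is known for roles in cell adhesion and in axon branching.

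A value is the number of reads in a listed region after scaling by the authors to the Drosophila reads, called normalized reads below. Levels of regions that differ in length are compared per kb. With 1 library per genotype and mark there is no replicate check and no test. Intervals in parentheses are exact Clopper-Pearson 95% intervals from the reads behind the values, and they cover counting error only. Over all its listed regions, H3K36me2 had a median K36M over WT ratio of 0.239, which is a log2 ratio of −2.07. For H3K36me3 the median ratio was 0.305, a log2 ratio of −1.71. A member's deviation is its log2 ratio minus that median. Coordinates are printed as deposited.

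One listed H3K36me3 region covers the place of Nuak1, at about 83.83 to 83.90 Mb. It is 80.2 kb long and runs from 83826800 to 83906999. By the RefSeq table of GRCm38.p6, Nuak1 is on the minus strand, so its start is at the higher coordinate and its transcription runs towards the H3K36me2 domains described below. The 250 bases before its start are shown, because the upper end of this H3K36me3 region is the start side of the gene. They are taken from RefSeq (GRCm38.p6, chr10:84440669-84440918, minus strand, 5′ to 3′), with each CG dinucleotide in capitals. These coordinates belong to another build than those of the peak tables.
Nuak1 promoter: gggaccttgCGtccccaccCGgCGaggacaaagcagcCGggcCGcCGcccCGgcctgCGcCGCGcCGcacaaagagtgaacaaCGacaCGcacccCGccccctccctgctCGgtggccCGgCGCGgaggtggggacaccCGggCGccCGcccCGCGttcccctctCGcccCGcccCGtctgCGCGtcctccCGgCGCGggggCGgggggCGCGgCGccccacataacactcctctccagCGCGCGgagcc
This stretch holds 38 CG dinucleotides, and 79.2% of its bases are G or C. CG reads the same on both strands, and its capitals also mark neighbouring copies such as CGCG. Of 32851 stretches of the same length in that table, 1.88% held at least 38, the median was 6, and 92.1% held at least 1. The count describes the sequence only.

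Over Nuak1, WT had 2742 normalized H3K36me3 reads and K36M had 395. The level in the mutant library was thus 14.4% of the WT level, a 6.94-fold difference with a ratio of 0.144 (0.137 to 0.152). The log2 ratio was −2.80, which deviates from the H3K36me3 median by −1.08, or 2.12-fold below the median ratio. Among 4999 H3K36me3 regions it had the 9th lowest ratio. Of the 303 on chromosome 10 its ratio was the lowest, and the next of these, from 109114400 to 109221799, was 5.59-fold lower in K36M.

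The regions beside it in the order of ratios were a 23.0 kb region on chromosome 15, from 42979600 to 43002599, at 7.02-fold lower, and a 1.8 kb region on chromosome 11, from 46886000 to 46887799, at 6.72-fold lower. The 23.0 kb region held 835 normalized reads in WT and 119 in K36M. The 1.8 kb region held few, 35.5 and 5.28. The Nuak1 region rests on 7031 reads in WT and 1795 in K36M. Among the 1326 H3K36me3 regions within 1.5 times its length, itself included, 1 other had a lower ratio. That region lies on chromosome 9 from 95539000 to 95632599 and was 7.02-fold lower, at 1863 in WT against 265 in K36M.

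Measured per kb, Nuak1 went from a high H3K36me3 level in WT to a level below the median in K36M. It had 34.2 normalized reads per kb in WT, the 70th highest of 4999, against a median of 18.8. In K36M it had 4.92 per kb, at percentile 30.6, against a median of 5.74. Of the 70 regions at least as dense in WT, Nuak1 included, it had the lowest K36M level per kb, and the median of those 70 was 12.5. Their median fold difference was 2.95, and 1 of them besides Nuak1 reached a ratio as low. H3K36me3 regions within 1.5 times its WT level per kb, 1037 in all, were 3.16-fold lower at the median, and 5 of them besides Nuak1 had a ratio as low or lower.

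**Figure D1:**
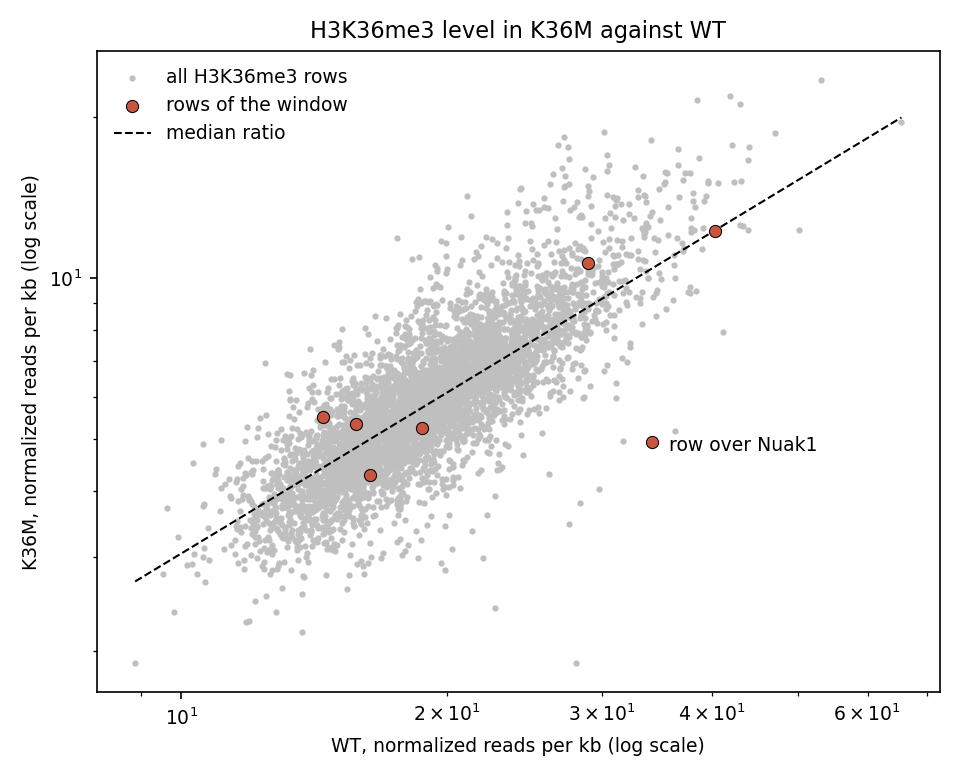
H3K36me3 level per kb in K36M (vertical) against WT (horizontal), both on log scales, for all 4999 listed regions in grey and the 7 of the window in red, 1 library per genotype. The dashed line is the median ratio of 0.305. The region over Nuak1, at 34.2 and 4.92 normalized reads per kb, lies far below the line, and the other 6 lie close to it.

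The other 6 H3K36me3 regions of the window were between 2.63-fold and 3.82-fold lower in K36M, with deviations from −0.22 to 0.32. With the 5th percentile of the mark's values added to both genotypes as a pseudocount, these deviations ran from −0.36 to 0.69. The median of the mark was then taken anew, so a deviation can move through the median alone. The 3.6 kb region described below moved most, from 0.28 to 0.69. The pseudocount of 55.2 is above that region's K36M value of 38.5 normalized reads, so its own ratio moves too. The densest of the 7 in WT is 103.4 kb long and runs from 83008000 to 83111399. WT had 4163 normalized reads there and K36M had 1269. The ratio of 0.305 (0.295 to 0.315) equals the median of the mark to 3 digits. Per kb it had 40.3 in WT and 12.3 in K36M. It was therefore 1.18 times as dense as the Nuak1 region in WT and 2.49 times as dense in K36M.

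Above Nuak1 no H3K36me3 region is listed for 182.6 kb. The next one, from 84089600 to 84191199, reaches beyond the window. Its WT value was 1661 and its K36M value 435 normalized reads, a ratio of 0.262 (0.248 to 0.276) and a deviation of −0.22. Its levels per kb were 16.4 and 4.28, so its K36M level was below that of Nuak1 although it was 3.82-fold lower rather than 6.94-fold lower.

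**Figure D2:**
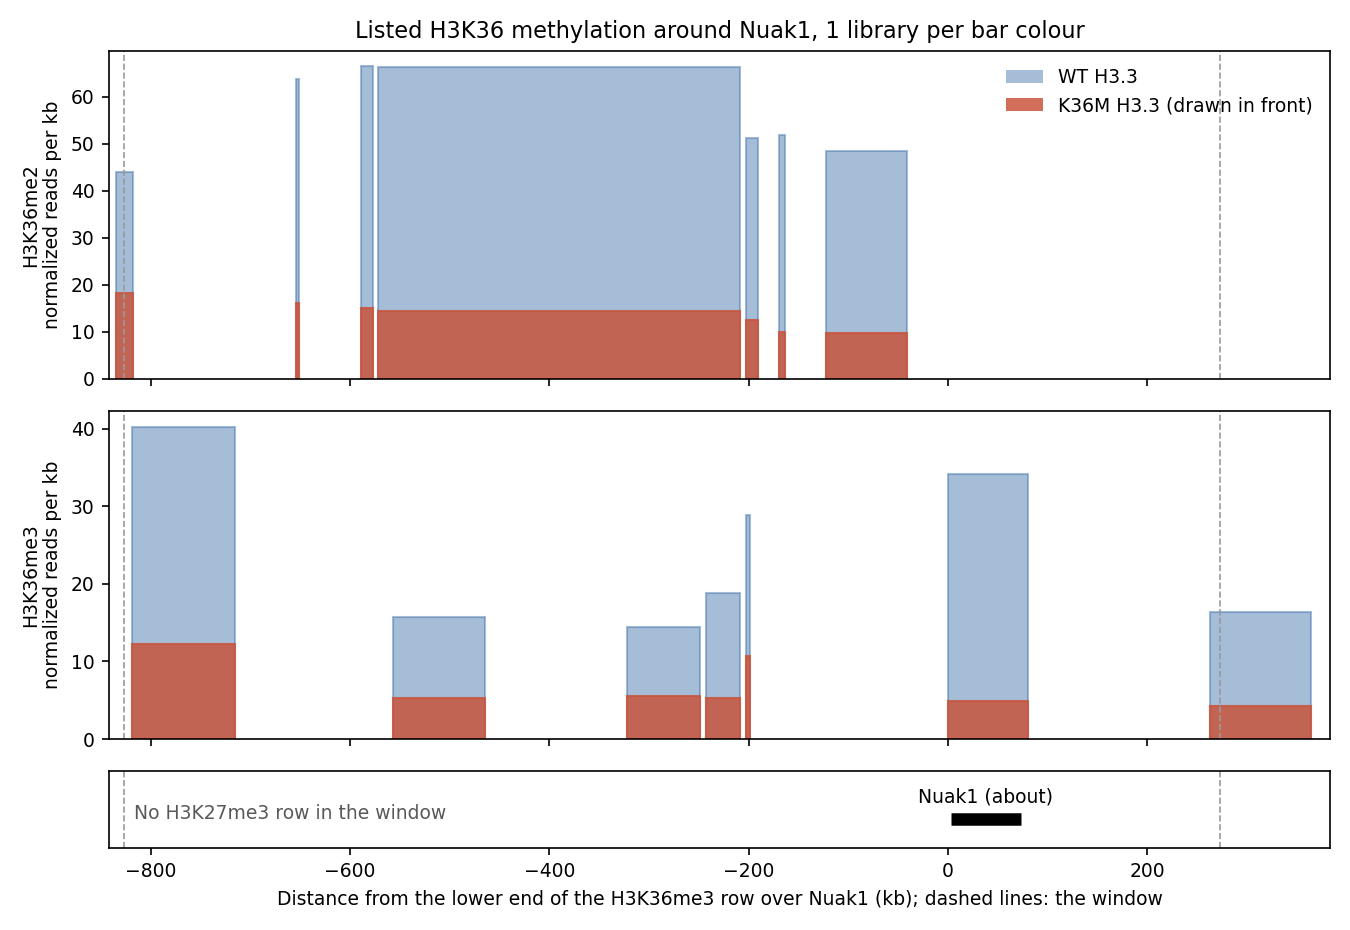
Normalized reads per kb of each listed H3K36me2 region (top) and H3K36me3 region (middle), WT in blue behind and K36M in red in front, 1 library each, against the distance in kb from the lower end of the H3K36me3 region over Nuak1. The bottom panel gives the place of Nuak1 and the dashed lines the window. H3K36me2 lies below Nuak1 in position and none is listed over it, and the red bar over Nuak1 is about as high as those inside the large H3K36me2 domain.

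The large H3K36me2 domain lies below Nuak1 in position, from 83255200 to 83617799, and 209 kb separate it from the H3K36me3 region over the gene. At 362.6 kb it is the second longest H3K36me2 region listed. WT had 24045 normalized H3K36me2 reads there and K36M had 5226, from 22264 and 10050 reads. The ratio was 0.217 (0.212 to 0.223), or 4.60-fold lower. Its log2 ratio of −2.20 deviates from the H3K36me2 median by −0.13, or by −0.44 with the pseudocount. The pseudocount of 38.5 is small beside the domain's values but larger beside the median WT value of 607, so mainly the median moves. Among all H3K36me2 ratios the domain stands at percentile 33.2. Its K36M level, 21.7% of WT, was thus close to the 23.9% of the median region. The domain also had the highest value of the table in the K36M library.

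The domain was selected on its WT value, so its high levels are given as a description. Per kb it had 66.3 normalized reads in WT, the 68th highest of 1691, and the regions above it in that order are shorter than 100 kb. The 59 other H3K36me2 regions of 100 kb or more ran from 37.1 to 51.0 per kb in WT with a median of 44.3, so none overlapped it. No input library was used here, so the amount of DNA at this place was not measured, and its part in the levels per kb was not tested. In K36M the domain had 14.4 per kb, and these others ran from 6.96 to 21.1 with a median of 10.0, 6 of them above it. The 60 regions of this length, the domain included, were 4.38-fold lower at the median, within a range of 2.41-fold to 6.47-fold.

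The 3 regions next below it in WT value are neighbours on chromosome 11, with differences of 4.91-fold to 5.15-fold. One of them, from 111429600 to 111871999, is the longest H3K36me2 region at 442.4 kb, and its values were 22543 in WT against 4377 in K36M. By length, WT level per kb and ratio together, the 5 regions most like the large domain were these 3 and 2 on chromosome 15. The measure was the Euclidean distance over log2 length, log2 WT level per kb and log2 ratio, each divided by its SD over all 1691 regions. It ran from 1.43 to 1.69 for the 5. The chromosome 15 regions, from 62088200 to 62346999 and from 8679200 to 8865599, were 4.27-fold and 4.36-fold lower. All 5 had 48.9 to 51.0 normalized reads per kb in WT, below the 66.3 of the large domain. Among the 5 regions within 1.5 times its length, itself included, 4 had a ratio at or below that of the domain, the domain among them. The median difference of all 5 regions of like length was 4.91-fold.

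**Figure D3:**
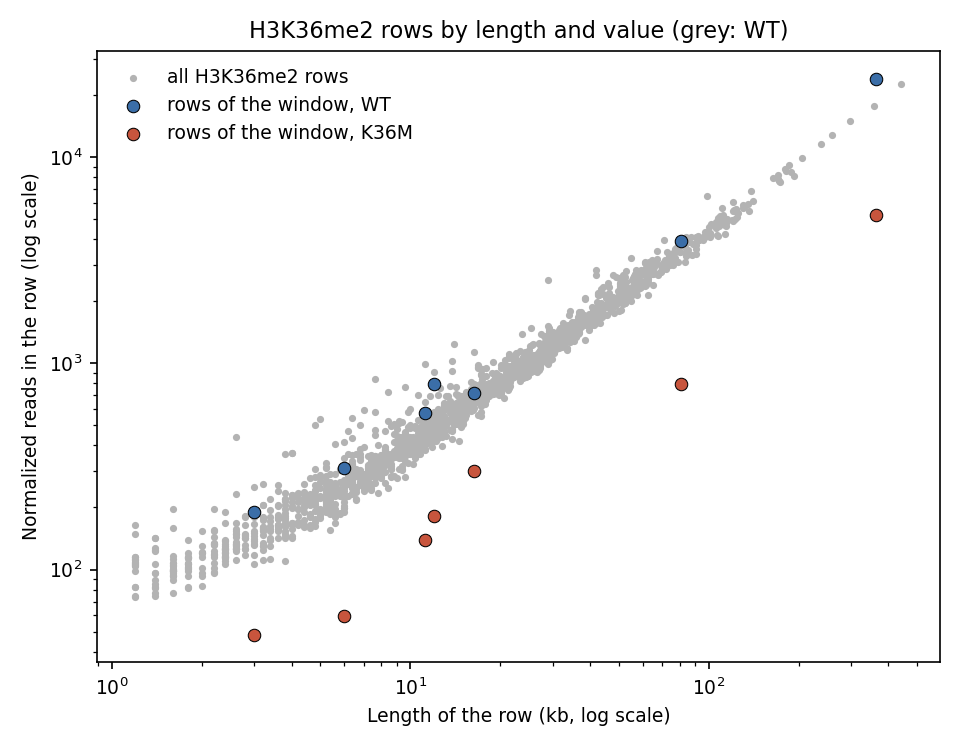
Normalized reads in each H3K36me2 region (vertical) against its length in kb (horizontal), both on log scales. Grey points are all 1691 regions in WT, and the 7 regions of the window are blue for WT and red for K36M, 1 library each. The large domain, at 362.6 kb and 24045 normalized reads in WT, lies above the band that regions of its length follow.

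The 6 other H3K36me2 regions of the window flank the large domain and held from 191 to 3918 normalized reads in WT. The domain itself held 78.7% of the WT signal listed for H3K36me2 in the window. On its lower side, 5.2 kb away, the region from 83238000 to 83249999 was 4.40-fold lower, at 797 against 181 normalized reads. Its 66.4 per kb in WT was close to that of the large domain. On the side towards Nuak1, 6.8 kb away, the region from 83624600 to 83635799 was 4.12-fold lower, at 573 against 139. The region from 83656800 to 83662799 was 5.25-fold lower, at 311 against 59.3, with a ratio of 0.191 (0.152 to 0.238).

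Closest to Nuak1, an 81.0 kb H3K36me2 region runs from 83704600 to 83785599 and ends 41.2 kb before the H3K36me3 region of the gene. WT had 3918 normalized reads in it and K36M had 794, which gives a ratio of 0.203 (0.191 to 0.215). Its deviation was −0.24, or −0.49 with the pseudocount, which also moves the median. Its levels per kb were 48.4 in WT and 9.80 in K36M. Both were below those of the large domain, so the H3K36me2 level per kb was lower on the Nuak1 side of the domain than inside it, in both libraries. No H3K36me2 region is listed over Nuak1, and above it the next begins 1292.8 kb further on.

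The smallest H3K36me2 difference lay at the far edge of the window. The region from 82992200 to 83008599 was 2.41-fold lower, at 719 against 299 normalized reads, and its ratio was 0.416 (0.371 to 0.465). With a deviation of 0.80 it stood at percentile 94.1 of all H3K36me2 ratios. H3K36me3 regions cover 31.7% of it. It joins the 103.4 kb H3K36me3 region described above and another just outside the window, from 82937200 to 82996799, which was 4.04-fold lower in K36M. The remaining H3K36me2 region, 3.0 kb from 83172200, meets no H3K36me3 region and was at 191 in WT against 48.4 in K36M. The counting interval of its ratio, 0.253 (0.195 to 0.327), includes the median of the mark.

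In numbers, all 7 H3K36me2 regions of the window were at least 2-fold lower in K36M, as were 97.0% of all listed H3K36me2 regions. At least 4-fold lower were 5 of the 7, against 59.0% of all. All 7 H3K36me3 regions were at least 2-fold lower, against 98.5% of all. The only H3K36me3 region of the window at least 4-fold lower was that over Nuak1, 1 of 7, against 9.96% of all. The window was chosen with these contrasts in view, so nothing is read from the counts.

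**Figure D4:**
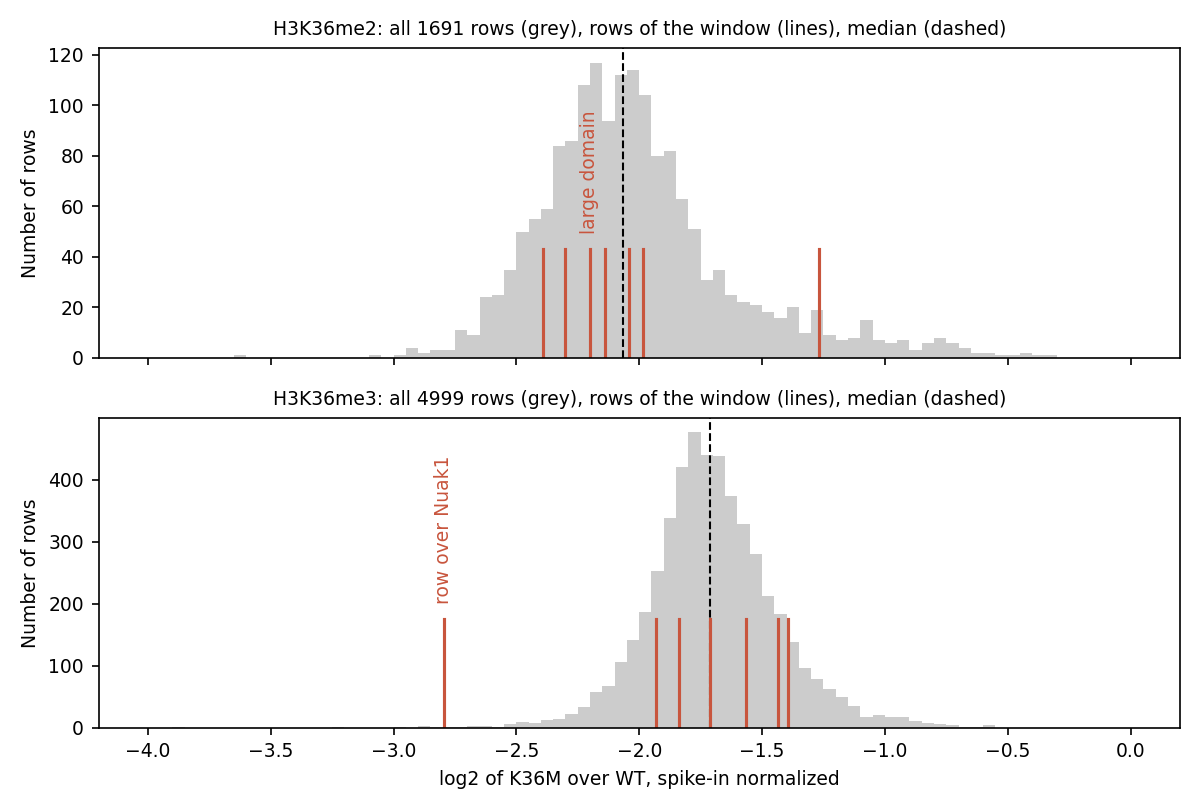
Number of listed regions (vertical) by log2 of K36M over WT (horizontal), for H3K36me2 (top) and H3K36me3 (bottom), in grey for all regions, with red lines for those of the window and a dashed line at the median, 1 library per genotype. The large H3K36me2 domain at −2.20 lies near its median of −2.07, whereas the H3K36me3 region over Nuak1 at −2.80 lies in the lower tail.

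Inside the large H3K36me2 domain 3 H3K36me3 regions are listed, and together they cover 55.1% of it. The one from 83270000 to 83361799 was at 1449 in WT against 490 normalized reads in K36M, and its ratio was 0.338 (0.320 to 0.356). That from 83504600 to 83578399 was at 1067 against 406, with a ratio of 0.380 (0.358 to 0.404). The one from 83583600 to 83617799, which ends at the same base as the large domain, was at 642 against 180, with a ratio of 0.280 (0.257 to 0.305). The first and second lie above the median ratio of the mark, with deviations of 0.15 and 0.32, and the last lies below it, with −0.12.

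Summed over the 3, H3K36me3 inside the domain was 2.94-fold lower, from 3158 to 1075 normalized reads. Per kb the sum was 15.8 in WT and 5.38 in K36M. The Nuak1 region was 2.16 times as dense as this in WT and 0.915 times as dense in K36M, with a counting interval of 0.867 to 0.966. The H3K36me3 level over the gene was thus above that inside the domain in WT and slightly below it in the mutant library. Another H3K36me3 region, 3.6 kb long, from 83624400 to 83627999, is 94.4% covered by the small H3K36me2 region next to the domain. Its values were 104 against 38.5 normalized reads and its ratio 0.370 (0.304 to 0.449).

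Over the window as a whole, H3K36me2 totalled 30555 in WT against 6746 normalized reads in K36M, a 4.53-fold difference, against 4.02-fold for all listed regions together. The 7 regions are 0.414% of the H3K36me2 table by number and held 1.60% of its WT signal and 1.42% of its K36M signal. For H3K36me3 the sums were 11829 and 3213, 3.68-fold lower against 3.28-fold in all. The sums count in full the regions that reach beyond the window, such as the H3K36me3 region beginning at 84089600. Over regions wholly inside the window the H3K36me3 ratio was 0.273. Without the Nuak1 region, an alternative chosen after the data were seen, the H3K36me3 ratio of the window was 0.310 in place of 0.272, against 0.304 for all regions. The medians over the members were −2.14 for H3K36me2 and −1.71 for H3K36me3 on the log2 scale. In each mark 4 of the 7 were below the median of the mark and 3 above, near the even split that a median gives over all regions. Among those below for H3K36me3, the region beginning at 83008000 had a deviation of only −0.00076.

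No H3K27me3 region is listed in the window in either genotype, since both were counted over the same regions. The nearest begins 305.8 kb above the H3K36me3 region of Nuak1 and runs from 84212800 to 84234999. Its values were 228 in WT against 212 normalized reads in K36M, with a ratio of 0.932 (0.853 to 1.02), close to the H3K27me3 median of 0.943. On the other side the nearest ends 2.34 Mb below the large domain. Its values were 114 against 75.1 normalized reads, with a ratio of 0.658 (0.571 to 0.758), which is below the median. Signal outside the listed regions was not measured here, and whether H3K27me3 differed over Nuak1 was not tested.

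Before the scaling, the ratio of K36M to WT reads was 0.255 over Nuak1, against 0.540 over all H3K36me3 regions. In the large H3K36me2 domain it was 0.451, against 0.517 over all H3K36me2 regions. A factor per library multiplies all regions of a mark alike, so the deviations from the median do not depend on it.

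By the order of genes in the RefSeq table of GRCm38.p6, the next protein-coding genes below Nuak1 are 1500009L16Rik, then Appl2, an endosomal adaptor, then Washc4, a subunit of the WASH complex. Between Nuak1 and 1500009L16Rik the table lists 9 lncRNA genes and 1 pseudogene. Above Nuak1 the next is Ckap4, a membrane protein of the endoplasmic reticulum, after 3 lncRNA genes and 1 pseudogene. That table is of another build than the peak tables, so no region other than that over Nuak1 was given a gene name, and genes of the NUAK1 pathway and markers of the cell type were not placed on the regions. Expression of Nuak1 was not measured in the data used here.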

How the data were processed

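The deposited values are a signal per region: the authors scaled reads to the Drosophila spike-in, 1 table per mark with 1 column per genotype, per the file headers. The submitters' processing notes name Bowtie 1.0.0, the mouse build mm9 and the fly build dm6. Not given in the sources used here are the caller of the regions, the library it ran on, the formula of the factor and whether the tables list every region called.

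Each column's values are whole multiples of 1 step, 1.08 and 0.52 for H3K36me2 and 0.39 and 0.22 for H3K36me3 (WT, K36M), which was taken as 1 read. The members then hold 93 to 22264 reads per library. Members are the regions that overlap the window by at least 1 base. No pseudocount was used for the main values, and no value was filtered. No p-value was computed. Starts and ends are as in the tables, which appear to count from 0.

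The window, its members and all comparisons were chosen with earlier results of these data known. Regions named beside the members are the 5 most like the large domain, the 3 next below it in WT value, and, chosen after the values were seen, the neighbours of the Nuak1 region in the order of ratios. The calculations were tested on simulated counts. Python 3.11.15 with numpy 2.4.6, pandas 2.3.3, scipy 1.17.1 and matplotlib 3.10.9 was used.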

Additional observations from a re-analysis of the deposited data

How the results depend on the processing

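The window was chosen by the low H3K36me3 ratio over Nuak1, so the alternative runs do not test its direction. Another reference leaves its log2 ratio of −2.80 as it is and shifts only the deviation of −1.08. That deviation ran from −1.05 (regions of like length) to −1.14 (regions of like WT level per kb). Both of these references were chosen after the data were seen. With a pseudocount (5th percentile), which moves the median too, the deviation became −1.18. The deviation of the large H3K36me2 domain, −0.13, was small and depended on the reference: it was −0.076 against chromosome 10, −0.20 against the total signal, −0.44 with the pseudocount and 0.093 against the 5 regions of like length, itself included, an alternative chosen after the data were seen. With both libraries scaled to the same total, which removes the global difference by construction, the log2 ratio was −1.08 over Nuak1 and −0.20 in the large domain. The window's total ratio became 0.887 for H3K36me2 and 0.892 for H3K36me3. Under this scaling the direction reversed in the H3K36me2 regions beginning at 82992200 (0.74) and 83172200 (0.023), and in the H3K36me3 regions beginning at 83008000 (0.0023), 83270000 (0.15), 83504600 (0.32) and 83624400 (0.28). The region beginning at 83270000 also turned from a deviation of 0.15 to −0.013 with the pseudocount. The pseudocount moved the H3K36me3 regions beginning at 83008000, 83504600, 83624400 and 84089600 to −0.22, 0.17, 0.69 and −0.36. It moved the H3K36me2 regions beginning at 83704600 and 82992200 to −0.49 and 0.59. The H3K36me2 regions beginning at 83172200 and 83656800 went from 0.085 to 0.35 and from −0.32 to −0.082. Those beginning at 83238000 and 83624600 went from −0.071 to −0.17 and from 0.027 to −0.027. The window's H3K36me2 ratio of 0.221 was 0.216 in regions wholly inside it and 0.234 without the large domain. Its H3K36me3 ratio of 0.272 was 0.273 in regions wholly inside it and 0.310 without the Nuak1 region. The large domain ranked 1st by WT value and 68th by WT value per kb. These shifts follow from the settings of the calculation, and the pseudocount also moves the median that each deviation is taken from. No replicate could be left out, and error between cultures was not measured.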
